A study of Homo sapiens with 8 samples.

Results

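Small nucleolar RNA host genes are genes whose introns carry small nucleolar RNAs (snoRNAs) and whose own spliced transcript is, in most cases, noncoding. The set comprised GAS5, ZFAS1, DANCR, EPB41L4A-AS1 and every gene that could be matched to a symbol of SNHG plus a number. SNHG33, a symbol found only in RefSeq, could not be matched. This gave 32 genes in a table with 34290 genes that had a count. Of the 32, 26 were abundant enough to be among the 19280 genes tested. They were measured by RNA sequencing in 8 libraries of HEK293T cells, an easily transfected line derived from human embryonic kidney that expresses SV40 large T antigen. The 4 control libraries came from normal HEK293T cells of control genotype. The other 4 came from HEK293T cells overexpressing KCNQ3, a subunit of neuronal voltage-gated potassium channels, from a tagged open reading frame of the human gene transfected with FuGene HD and harvested after 48 hours. Since this protocol is attached to all 8 samples, it is not clear from the labels whether control cells were also given reagent or a plasmid without an insert. Separate cultures are not named for the replicates of a group, so p-values rest on the spread between these samples alone, and that spread may be technical.

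After splicing, the intron of a host transcript is debranched and trimmed back to the snoRNA, which assembles with a fixed set of proteins. Box C/D snoRNAs guide 2'-O-methylation of ribosomal RNA, box H/ACA snoRNAs guide pseudouridylation, and scaRNAs guide the same modifications on spliceosomal RNAs in Cajal bodies. The exons that remain are often short-lived in the cytoplasm, where many hosts are degraded by nonsense-mediated decay, the pathway that removes transcripts with early stop codons. Many hosts start with a run of pyrimidines, the terminal oligopyrimidine (TOP) motif that they share with messenger RNAs of ribosomal proteins. Growth and mTORC1 activity control the translation of TOP transcripts, and GAS5 was named for its accumulation in growth-arrested cells.

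The snoRNAs printed here belong to abundant hosts and to 3 of the 4 hosts whose libraries did not overlap between groups (DANCR, SNHG19 and SNHG21), since the results below turn on these hosts. Sequences and GRCh38 positions are those of GENCODE release 29. In box C/D snoRNAs the capitals mark the C box (TGATGA) and the D box (CTGA), and in H/ACA snoRNAs and scaRNAs they mark the ACA close to the 3′ end.
SNORD49A, in SNHG29 (chr17:16440036-16440106, plus strand): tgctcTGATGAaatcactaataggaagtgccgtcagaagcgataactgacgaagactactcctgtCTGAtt
SNORD49B, in SNHG29 (chr17:16439505-16439576, plus strand): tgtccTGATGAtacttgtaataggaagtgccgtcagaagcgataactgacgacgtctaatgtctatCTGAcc
SNORD48, in SNHG32 (chr6:31835263-31835326, plus strand): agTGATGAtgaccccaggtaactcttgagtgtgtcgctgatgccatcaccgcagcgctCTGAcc
SNORD52, in SNHG32 (chr6:31837076-31837142, plus strand): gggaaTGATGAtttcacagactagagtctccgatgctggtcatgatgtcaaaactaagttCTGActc
SNORD12C, in ZFAS1 (chr20:49278940-49279028, plus strand): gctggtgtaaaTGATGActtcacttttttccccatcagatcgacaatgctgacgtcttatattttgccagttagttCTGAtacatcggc
SNORD12B, in ZFAS1 (chr20:49280319-49280409, plus strand): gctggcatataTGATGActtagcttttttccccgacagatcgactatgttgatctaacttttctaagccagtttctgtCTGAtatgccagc
SNORD12, in ZFAS1 (chr20:49280683-49280772, plus strand): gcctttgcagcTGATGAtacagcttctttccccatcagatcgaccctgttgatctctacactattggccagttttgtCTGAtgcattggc
SNORD60, in SNHG19 (chr16:2155023-2155105, minus strand): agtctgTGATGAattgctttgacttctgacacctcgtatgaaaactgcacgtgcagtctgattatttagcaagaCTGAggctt
SNORA26, in DANCR (chr4:52713249-52713370, plus strand): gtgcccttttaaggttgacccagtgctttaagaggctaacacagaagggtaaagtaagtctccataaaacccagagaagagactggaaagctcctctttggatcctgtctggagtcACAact
SCARNA15, in SNHG21 (chr15:82755945-82756071, plus strand): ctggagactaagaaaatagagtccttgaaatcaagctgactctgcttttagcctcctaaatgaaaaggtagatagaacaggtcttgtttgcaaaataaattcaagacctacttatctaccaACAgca
SNORD49A and SNORD49B of SNHG29 share an unbroken run of 35 bases. SNORD12 and SNORD12C of ZFAS1 share a run of 18 bases, and SNORD12B shares runs of 9 and 11 bases with them. In RefSeq, GAS5 carries 10 box C/D snoRNAs (SNORD44, SNORD47 and SNORD74 to SNORD81) and the H/ACA snoRNA SNORA103. SNHG1 carries 8 box C/D snoRNAs, and SNHG14, the long host of the Prader-Willi region, carries 83.

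The snoRNAs themselves were barely seen in these libraries. Of 144 snoRNAs annotated inside the 32 hosts, 138 lay in an intron of at least 1 host transcript and 0 were in GAS5. No count was found in any library for the 84 inside SNHG14. Of the 60 in other hosts, 3 had no count and 31 were listed at exactly 1 count in every library. The highest total over all 8 libraries was 261 counts, for SNORA73B of SNHG3, a U17 snoRNA that acts in cleavage of the ribosomal RNA precursor. The values that follow are those of the host transcripts, not of the snoRNAs made from their introns.

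Host promoters held the TOP start and a TATA box in a larger share than promoters in general, as a description without a test. In RefSeq (GRCh38.p14), 28 of the 32 hosts had a promoter window, and SNHG6, SNHG9, SNHG15 and SNHG25 had none. A TOP start, taken as a first transcribed base C followed by 4 bases that are each C or T, stood at 7 of the 28 hosts (25%), against 5.14% of 27303 genes and 73.4% of 64 ribosomal protein genes. The letters TATAA on the transcribed strand, between 40 and 16 bases before the start, were present at 6 of 28 hosts (21.4%), against 4.94% of all genes. Of the 64 ribosomal protein genes, 10.9% had TATAA. Both occurred together at 4 hosts (14.3%), against 33 of all genes (0.121%) and 6 of the ribosomal protein genes (9.38%). These are the 40 bases before and the 25 bases from the annotated start of the 4 hosts with both motifs and of the other 2 TOP hosts that were tested, with TATAA and the pyrimidine run in capitals.
ZFAS1 (chr20:49278602-49278666, plus strand): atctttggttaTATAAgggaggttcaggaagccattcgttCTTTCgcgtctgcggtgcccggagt
SNHG12 (chr1:28581849-28581913, minus strand): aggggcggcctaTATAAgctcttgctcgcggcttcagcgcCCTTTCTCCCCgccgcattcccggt
SNHG5 (chr6:85678709-85678773, minus strand): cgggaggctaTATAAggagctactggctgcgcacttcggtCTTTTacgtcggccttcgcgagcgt
SNHG19 (chr16:2155334-2155398, minus strand): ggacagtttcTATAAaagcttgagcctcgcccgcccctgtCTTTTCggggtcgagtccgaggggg
SNHG4 (chr5:139274061-139274125, plus strand): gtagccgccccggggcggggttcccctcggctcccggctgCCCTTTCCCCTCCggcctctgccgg
SNHG32 (chr6:31834876-31834940, plus strand): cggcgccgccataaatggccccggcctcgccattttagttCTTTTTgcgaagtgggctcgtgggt
SNHG7 and SNHG8 had TATAA without a TOP start, and SNHG18, which had no count, had a TOP start alone. A window without these letters says only that they are absent at the RefSeq start used here. The log2 fold changes of the 6 tested hosts with a TOP start, overexpression over control, pointed both ways: 0.46 for SNHG19, 0.38 for SNHG4, -0.037 for SNHG12, -0.18 for ZFAS1, -0.25 for SNHG32 and -0.41 for SNHG5. These values sum all transcripts of a gene, and some transcripts start elsewhere. ZFAS1-205 (mean of 47.3% of ZFAS1 counts) and C6orf48-205 (48.9% of SNHG32 counts) are annotated to start upstream of the printed windows.

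Host RNA in HEK293T came mostly from a pair of genes. Levels between genes are compared in TPM, which scales for transcript length. GAS5 had the highest mean level over the 8 libraries, 1313 TPM with a range of 1062 to 1548, followed by SNHG29 at 1136 TPM with a range of 751 to 1331. The ranges of these 2 hosts overlapped, and together they held 57.8% to 64.6% of all host TPM in each library. No library of any other host reached their lowest value. SNHG32 followed at 303 TPM (257 to 375), SNHG6 at 239 TPM (212 to 264), ZFAS1 at 187 TPM (137 to 277) and SNHG1 at 150.1 TPM (79.7 to 226). Each of these 4 overlapped its neighbour in the order. DANCR (71.7 TPM, 62.9 to 79.4) lay just below the lowest SNHG1 library, and SNHG3 (69.7 TPM, 50.3 to 87.9) overlapped it. The lowest tested host was SNHG26 at 1.002 TPM.

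**Figure D1:**
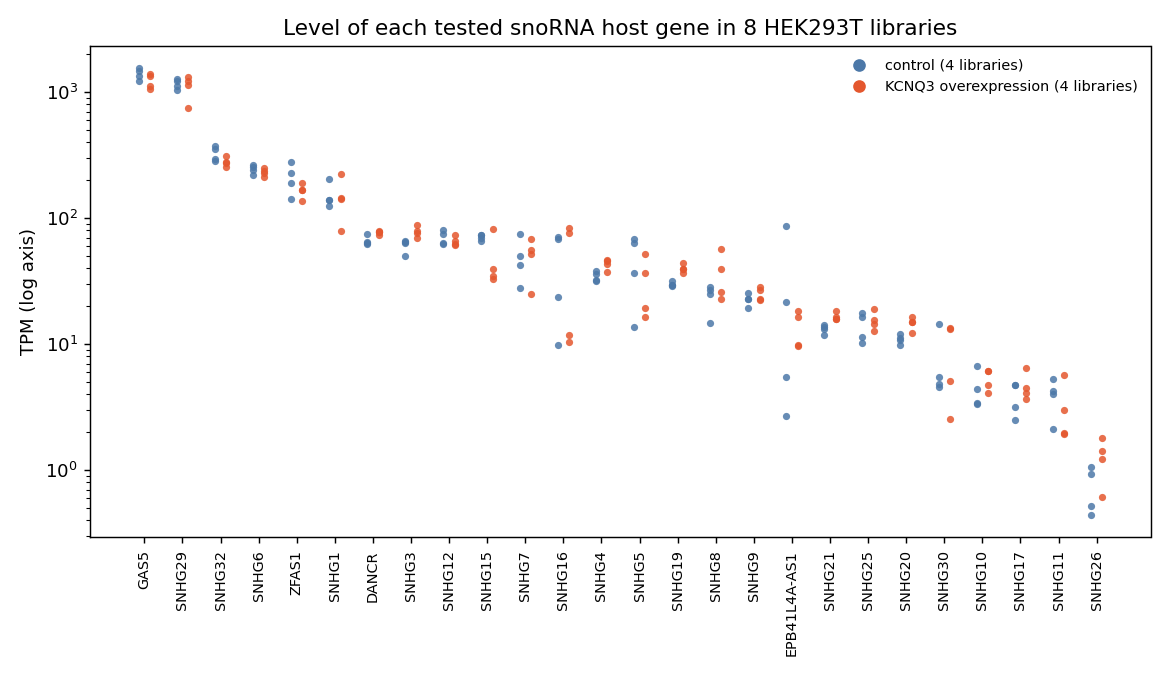
TPM of each of the 26 tested host genes in every library on a log axis, ordered by mean, with control libraries in blue and KCNQ3 overexpression libraries in red. GAS5 and SNHG29 lie apart at the top, and SNHG16, SNHG5, EPB41L4A-AS1 and SNHG30 show wide scatter within groups.

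Summed over the 32 hosts, the level was 3812, 3687, 4529.7 and 4346 TPM in the 4 controls and 4187, 4226, 3508 and 3245 TPM in the 4 overexpression libraries, each in the order of replicates 1 to 4, which is kept below. The groups overlapped. The 80 cytosolic ribosomal protein genes, whose mRNAs also start with a TOP motif, summed to 172967 to 189885 TPM in controls and 174524 to 189473 TPM in overexpression libraries, which also overlapped. Total estimated counts ran from 24020097 to 30734915 per library, mitochondrially encoded genes took 3.99% to 5.84% of them, and the count of KCNQ3 was 0 to 5 in control and 15283 to 19709 in overexpressing cells. All 10 HEK293T markers were detected, and defining markers of fibroblasts, blood and hepatocytes (COL1A2, DCN, PTPRC, HBB, TTR) were listed at 0, while COL1A1 reached 6.62 TPM.

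The other 6 hosts were too low to be tested. SNHG14 had 34 counts in all, SNHG22 had 25, SNHG31 had 4 and SNHG28 had 1. SNHG18 and SNHG27 had 0 counts, which allows up to 3 counts over the 8 libraries or 0.0144 CPM, for counting error only. SNHG14 is the neuronal host whose far end runs antisense to UBE3A. Every library had 3 to 7 of its counts. The 4 counts of SNHG31 all came from control replicate 1.

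No host passed the test between KCNQ3 overexpression and control. By edgeR's quasi-likelihood test, adjusted by the Benjamini-Hochberg method over all 19280 genes, 0 of 26 hosts had an adjusted p under 0.05, against 0.301% of all genes (0.109% higher), and the smallest adjusted p among hosts was 0.0599 (SNHG21). DESeq2's Wald test called 6 of the 26, all higher (DANCR, SNHG3, SNHG4, SNHG19, SNHG20 and SNHG21), against 2.06% of its genes called higher. With edgeR, leaving out control replicate 4 called SNHG4, SNHG19 and SNHG20 (0.415% of all genes called higher), and leaving out overexpression replicate 1 called SNHG19 (0.6%). At an unadjusted p under 0.05 there were 7 of 26 hosts (26.9%), 6 higher and 1 lower after overexpression, against 19.4% of all genes (9.92% with such a p and a higher level, 9.46% with a lower one). The median log2 fold change was 0.13 over the hosts and 0.0090 over all genes. It was above 0 for 15 hosts and below 0 for 11, where 52.6% of all genes were above 0. In 4 of 26 hosts (15.4%) the libraries of the groups did not overlap, all with higher levels after overexpression. The share among all genes was 11.6%, with 5.84% higher.

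**Figure D2:**
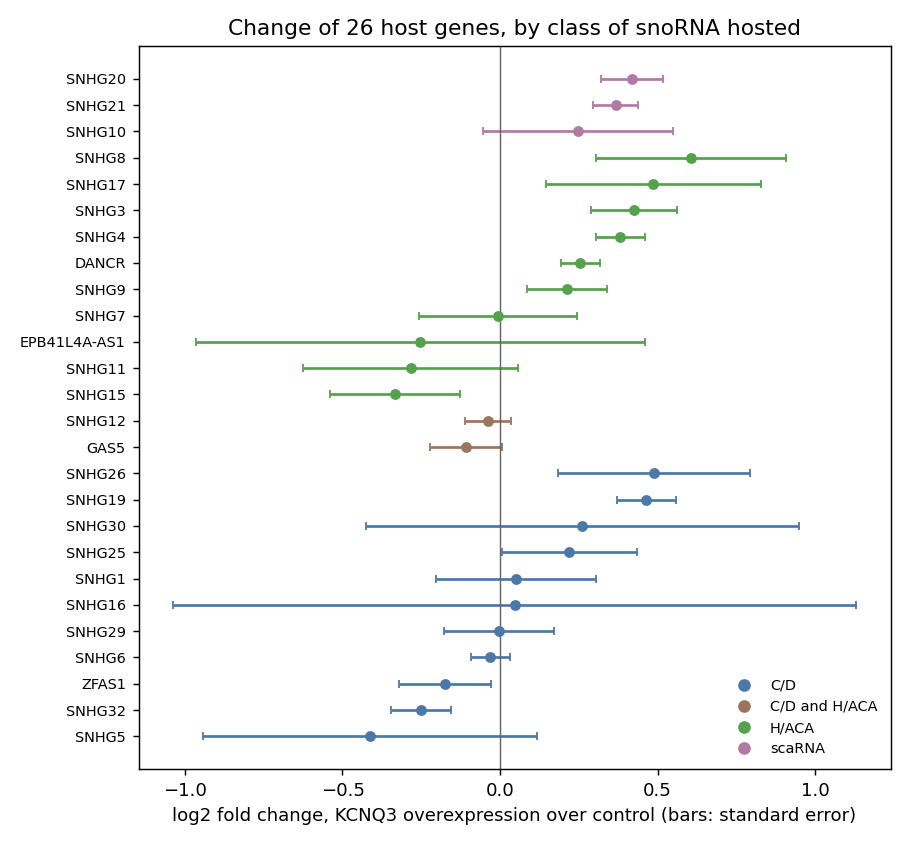
Log2 fold change of each tested host gene, overexpression over control, with its standard error, grouped by the class of snoRNA that RefSeq places within it. SNHG20, SNHG21, SNHG3, SNHG4, DANCR and SNHG19 lie above 0 by more than 3 standard errors, and bars of SNHG16, EPB41L4A-AS1, SNHG30 and SNHG5 are the widest.

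The 4 hosts without overlap were DANCR, SNHG4, SNHG19 and SNHG21. Values between groups are in CPM, counts scaled to the TMM-adjusted library size, as mean ± SD over 4 libraries. DANCR (ENSG00000226950, chromosome 4, 52712404 to 52720351, plus strand) is a lncRNA known for holding back differentiation of progenitor cells. Its level was 30.5, 37.3, 34.5 and 35.6 CPM in controls and 39.4, 43.4, 40.6 and 41.2 CPM in overexpression libraries. The groups were separated by the narrow gap between control replicate 2 and overexpression replicate 1. The means were 34.5 ± 2.87 and 41.2 ± 1.69 CPM, a log2 fold change of 0.26 (SE 0.062, adjusted p = 0.0816). With retained-intron and single-exon transcripts left out, which removes its main transcript DANCR-202, edgeR gave a log2 fold change of -0.073 (adjusted p = 0.991).

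SNHG4 (ENSG00000281398, chromosome 5, 139274102 to 139284899, plus strand) carries H/ACA snoRNAs and has a TOP start, printed above. The controls had 34.8, 34.1, 32.3 and 39.6 CPM and the overexpression libraries 44.9, 49.4, 40.2 and 48.97 CPM. Control replicate 4 was only just below overexpression replicate 3, and the other 3 controls were well below every overexpression library. Its mean went from 35.2 ± 3.09 to 45.9 ± 4.30 CPM, a log2 fold change of 0.38 (SE 0.078, adjusted p = 0.0628). SNHG4 shares 626 exonic bases (14% of its exonic length) with MATR3 on the same strand. MATR3 varied widely, with 126 ± 165 CPM in control and 138 ± 179 CPM in overexpression libraries (SD, n = 4), so the authors' division of reads between these genes bears on both values, and its part in the SNHG4 difference was not tested.

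SNHG19 (ENSG00000260260, chromosome 16, 2154797 to 2155358, minus strand) is a short host with 1 annotated transcript of 342 bases, and SNORD60 lies in its intron. Its control libraries had 5.87, 6.09, 6.23 and 7.0 CPM and its overexpression libraries 7.58, 9.80, 8.62 and 8.75 CPM. All 4 overexpression libraries stood above all 4 controls. The log2 fold change was 0.46 (SE 0.093, adjusted p = 0.0617), from 6.30 ± 0.491 to 8.69 ± 0.910 CPM. No other annotated gene shares exonic bases with SNHG19. With 1 transcript in release 29, no division of reads among isoforms of that release entered its count.

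SNHG21 (ENSG00000250988, chromosome 15, 82750564 to 82757206, plus strand) carries SCARNA15. It had 6.13, 6.13, 6.81 and 5.89 CPM in controls and 8.29, 8.03, 7.80 and 8.09 CPM in overexpression libraries, which lay close together within each group. The means were 6.24 ± 0.399 and 8.05 ± 0.204 CPM, with a log2 fold change of 0.37 (SE 0.071, adjusted p = 0.0599). Of its exonic bases, 72.9% are shared on the same strand with a second annotated transcript gene (ENSG00000252690), which had 4.96 ± 1.12 CPM in control and 5.67 ± 0.866 CPM in overexpression libraries (SD, n = 4). FSD2 lies opposite 34.1% of the exonic bases of SNHG21. FSD2 had 0.136 ± 0.272 CPM in control and 0.667 ± 0.375 CPM in overexpression libraries (SD, n = 4). Whether the counting used strand is not stated in the labels, so reads of SNHG21 and FSD2 cannot be told apart with certainty. Reads of SNHG21 and ENSG00000252690, on the same strand, cannot be told apart by strand at all.

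SNHG20 and SNHG3 followed with small unadjusted p-values and a slight overlap of the groups. SNHG20, the host of SCARNA16, had 14.6, 13.5, 13.6 and 17.1 CPM in controls and 21.5, 21.1, 16.6 and 19.4 CPM in overexpression libraries. The only overlap was overexpression replicate 3, below control replicate 4. Its log2 fold change was 0.42 (SE 0.099, adjusted p = 0.0807). SNHG3, the host of the U17 snoRNAs SNORA73A and SNORA73B, had 64.4, 85.2, 88.6 and 98.4 CPM in controls and 96.9, 117, 112 and 126 CPM in overexpression libraries. Here overexpression replicate 1 lay just below control replicate 4, and control replicate 1 was the lowest of the 8. The means were 84.1 ± 14.3 and 113 ± 12.1 CPM, a log2 fold change of 0.42 (SE 0.14, adjusted p = 0.162). SNHG3 shares 242 bases (5.9%) with RCC1, a regulator of chromatin condensation whose gene runs on the same strand, and RCC1 had 213 ± 4.77 CPM in control and 225 ± 7.92 CPM in overexpression libraries (SD, n = 4). SNHG20 shares 7.6% of its exonic bases with SEC14L1.

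**Figure D3:**
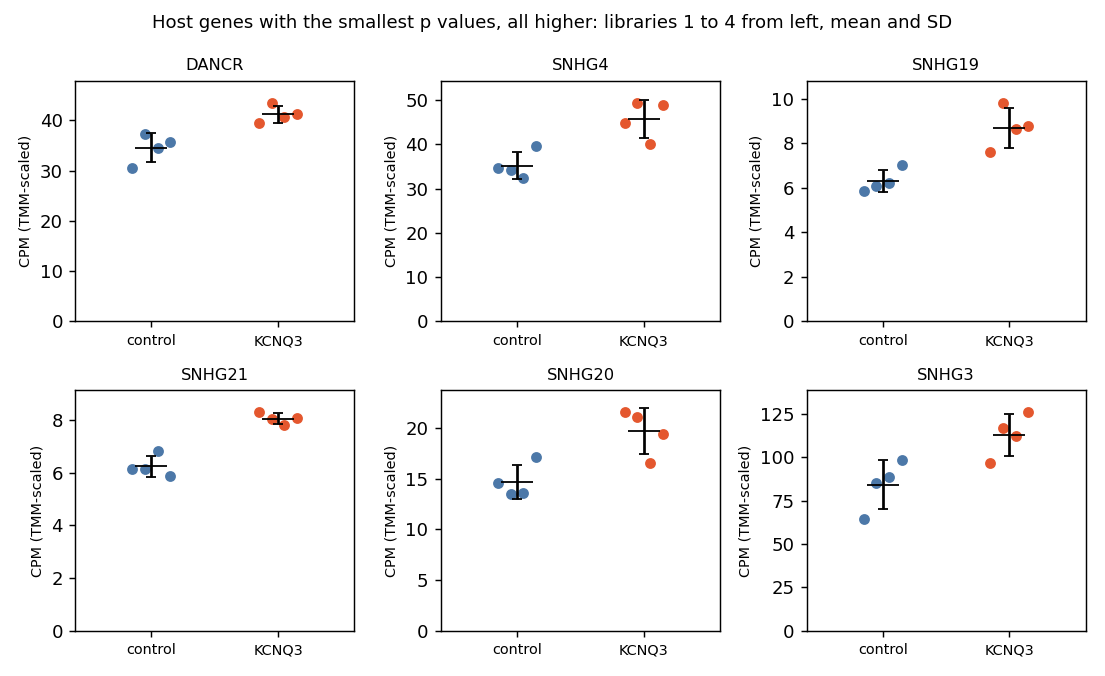
TMM-scaled CPM in each library, replicates 1 to 4 from left within a group, with mean and SD, for the 6 hosts with the smallest p-values. DANCR, SNHG4, SNHG19 and SNHG21 show no overlap between groups, and SNHG20 and SNHG3 overlap by 1 library.

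In the most abundant hosts the groups overlapped. GAS5 (ENSG00000234741, chromosome 1, 173863900 to 173868882, minus strand) had 485, 481, 600.3 and 634 CPM in controls and 506, 597, 470.2 and 469 CPM in overexpression libraries. Control replicates 3 and 4 and overexpression replicate 2 were the 3 highest. The means were 550.2 ± 78.7 and 511 ± 60.1 CPM, with a log2 fold change of -0.11 (SE 0.12, adjusted p = 0.667). ZFAS1 (ENSG00000177410, chromosome 20, 49278178 to 49295738, plus strand), a TOP host that starts beside the ZNFX1 promoter, had 87.04, 86.1, 115 and 121 CPM in controls and 88.2, 108, 83.9 and 82.4 CPM in overexpression libraries. The same 3 libraries were the highest for ZFAS1. Its log2 fold change was -0.18 (SE 0.15, adjusted p = 0.567).

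SNHG29 (ENSG00000175061, chromosome 17, 16438822 to 16478678, plus strand), named LRRC75A-AS1 in GENCODE release 29, had 661, 714, 835 and 906 CPM in controls and 821, 930.2, 806 and 552 CPM in overexpression libraries. Overexpression replicate 2 was the highest library and replicate 4 the lowest. The means were nearly equal, 779 ± 112 and 777 ± 160.2 CPM, with a log2 fold change of -0.0033 and an SE of 0.18 (adjusted p = 0.997). Its opposite-strand neighbour LRRC75A, which covers 12% of its exonic bases, had 18.9 ± 11.5 CPM in control and 9.58 ± 3.50 CPM in overexpression libraries (SD, n = 4). Other hosts lie opposite a gene over more of their exonic length, among them EPB41L4A-AS1 (49.6%, EPB41L4A) and SNHG6 (29.3%, MCMDC2), and the same limit holds for them.

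SNHG32 (ENSG00000204387, chromosome 6, 31834608 to 31839766, plus strand), formerly C6orf48, was the only host with an unadjusted p under 0.05 and a lower mean after overexpression. It had 195, 161, 211 and 175 CPM in controls and 171, 166, 147 and 138 CPM in overexpression libraries. Overexpression replicates 3 and 4 were below every control, and replicates 1 and 2 lay among the lower controls. The log2 fold change was -0.25 (SE 0.096, adjusted p = 0.203 over all genes by edgeR). SNHG6 (ENSG00000245910, chromosome 8, 66921684 to 66926398, minus strand), the host of SNORD87, had 62.2, 60.2, 67.5 and 70.7 CPM in controls and 61.1, 70.0, 61.4 and 62.6 CPM in overexpression libraries. Apart from overexpression replicate 2, its overexpression libraries lay close together, and the groups overlapped, with a log2 fold change of -0.03 and an SE of 0.062 (adjusted p = 0.840). SNHG1 (ENSG00000255717, chromosome 11, 62851988 to 62855914, minus strand), which carries SNORD22 and SNORD25 to SNORD31, had 94.1, 91.8, 116 and 98.8 CPM in controls and 153, 101, 65.6 and 94.6 CPM in overexpression libraries. Its overexpression libraries included both the highest and the lowest of the 8, and the log2 fold change was 0.049 (SE 0.25, adjusted p = 0.945).

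**Figure D4:**
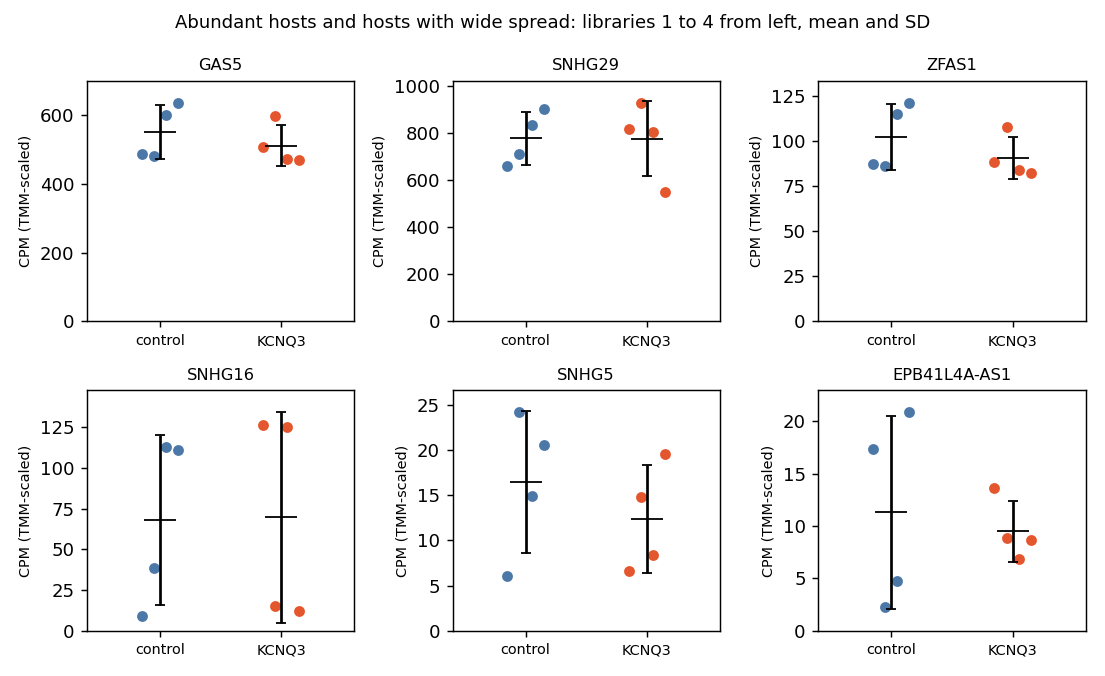
TMM-scaled CPM in each library, replicates 1 to 4 from left within a group, with mean and SD, for 3 abundant hosts and 3 hosts with wide spread. The groups overlap in all 6, and SNHG16 splits into high and low libraries within both groups.

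Spread within a group was wide for several hosts. Among the 25 hosts with a mean of at least 1 CPM in both groups, 4 (16%) differed by more than 3 times between the highest and the lowest library of a group, against 543 of 16516 such genes (3.29%). The median standard error of the log2 fold change was 0.18 for these hosts and 0.068 for all such genes. SNHG16, which carries the SNORD1 family, had 9.24, 38.6, 113 and 111 CPM in controls and 126, 15.1, 125 and 12.4 CPM in overexpression libraries. It was high in 2 libraries of each group and low in the others, and its log2 fold change was 0.046 with an SE of 1.08. EPB41L4A-AS1, the host of SNORA13, had 17.3, 2.27, 4.72 and 20.8 CPM in controls and 13.6, 8.81, 6.86 and 8.67 CPM in overexpression libraries. Control replicates 1 and 4 were high and control replicates 2 and 3 low, and all overexpression libraries lay between them.

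SNHG5, the host of the U50 snoRNAs, had 6.10, 24.1, 14.9 and 20.5 CPM in controls and 6.64, 14.8, 8.36 and 19.6 CPM in overexpression libraries. Replicate 1 was the lowest library of each group. SNHG30 had 3.50, 3.86, 4.47 and 12.2 CPM in controls and 4.05, 11.2, 2.20 and 11.4 CPM in overexpression libraries, with 1 high control and 2 high overexpression libraries. The log2 fold changes were -0.41 (SE 0.53) for SNHG5, -0.25 (SE 0.71) for EPB41L4A-AS1 and 0.26 (SE 0.69) for SNHG30. These errors are too wide to show a difference of the size seen for SNHG19. Of the deposited transcripts, 21947 could not be joined to release 29, and whether any of them held reads of these hosts was not tested.

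None of the remaining 10 hosts passed the test. SNHG15, the host of SNORA9, had a log2 fold change of -0.33 (SE 0.21, adjusted p = 0.430). SNHG15 had 40.3, 36.9, 42.1 and 43.2 CPM in controls and 35.5, 44.3, 24.8 and 24.3 CPM in overexpression libraries. Overexpression replicates 1, 3 and 4 were below all controls, and replicate 2 was above them all. SNHG8, the host of SNORA24, had 0.61 (SE 0.30, adjusted p = 0.328). It was the largest log2 fold change of the set, with 6.26, 4.05, 9.03 and 8.51 CPM in controls and 10.4, 14.98, 8.58 and 8.38 CPM in overexpression libraries, and its groups overlapped. The values for SNHG17 (0.49), SNHG26 (0.49), SNHG10 (0.25), SNHG25 (0.22) and SNHG9 (0.21) were above 0. Those for SNHG11 (-0.28), SNHG12 (-0.037) and SNHG7 (-0.0066) were below 0. Adjusted p in edgeR's test ran from 0.328 to 0.996 over these 10 hosts.

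By class of snoRNA in the introns, all 3 tested scaRNA hosts (SNHG20, SNHG21 and SNHG10) had values above 0, with a median log2 fold change of 0.37. Of the 10 tested H/ACA hosts, 6 were above 0 with a median of 0.23, and of the 11 tested box C/D hosts, 6 were above 0 with a median of 0.046. Both hosts of mixed content, GAS5 and SNHG12, were below 0. The difference between classes was not tested.

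In several hosts, such as DANCR and GAS5, the leading isoform changed from library to library, and no transcript passed the test between groups. Of 294 annotated host transcripts in the deposited table, 219 had a count and 138 were tested. By edgeR's quasi-likelihood test over 47129 transcripts, 0 of the 138 had an adjusted p under 0.05, against 0.0127% of all transcripts. At an unadjusted p under 0.05 there were 7, against 5.58% of all transcripts. In DANCR, counts of the retained-intron transcript DANCR-202 (823 bases) were 924, 959, 284 and 281 in controls and 1001, 15, 1073 and 984 in overexpression libraries. Counts of the spliced DANCR-201 (904 bases) were 7, 17, 538 and 608 in controls and 36, 1022, 3 and 0 in overexpression libraries. DANCR-202 took nearly all of the counts in 5 libraries and DANCR-201 did so in overexpression replicate 2. Control replicates 3 and 4 held both, while the sum over the gene stayed within the narrow range given above.

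GAS5 was spread over many isoforms. Counts of the spliced GAS5-221 were 5294, 6025, 3254 and 1015 in controls against 4984, 1628, 2218 and 398 in overexpression libraries, and those of GAS5-202 were 1763, 1163, 2799 and 2869 against 1765, 2609, 1216 and 1263. Replicate 4 had the fewest GAS5-221 counts in both groups. Of SNHG29, the transcript LRRC75A-AS1-209 had 8534, 13366, 9641 and 13999 counts over the controls against 8572, 12064, 11170 and 6022 over the overexpression libraries. In SNHG32, overexpression replicate 4 stood apart, with 356 counts of C6orf48-205 where the other 7 libraries had 2034 to 3609. SNHG16-202 held the swings of its gene, with 57, 702, 2028 and 2421 counts over the controls against 2926, 116, 2614 and 62 over the overexpression libraries.

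SNHG4-202, the main SNHG4 transcript, had 713, 694, 548 and 740 counts over the controls against 823, 899, 797 and 868 over the overexpression libraries. Every overexpression library was above every control in these unscaled counts, as for the gene. Transcripts annotated as retained introns held 15.9% to 23.5% of host counts among controls against 17.9% to 28.2% among overexpression libraries, and replicate 4 had the highest share in both groups. In the test of transcript usage by edgeR's diffSpliceDGE, 0 of 22 hosts with at least 2 tested transcripts had an adjusted p under 0.05, against 0.383% of 9395 genes. The same 22 hosts gave 0 at an unadjusted p under 0.05, both there and in a limma test of transcript shares, which called 0.107% of 9324 genes. On simulated data, changes of 4 times were recovered in 8.33% of cases by the transcript test, 0% by diffSpliceDGE and 5.56% by the share test. At 16 times these shares were 65.2%, 27.3% and 24.2%. An absence of calls therefore does not show that isoforms were alike.

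**Figure D5:**
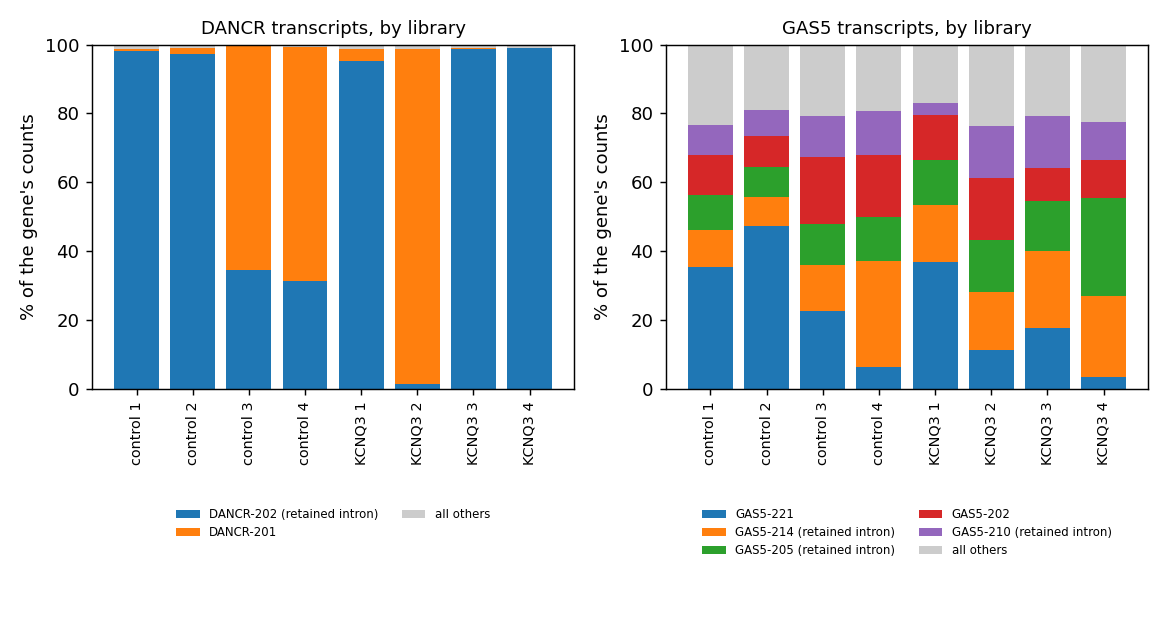
Share of each library's DANCR and GAS5 counts given to their main transcripts, as stacked bars in percent, for control and KCNQ3 overexpression replicates 1 to 4. DANCR counts lie almost wholly on DANCR-202 in 5 libraries and on DANCR-201 in overexpression replicate 2, and the GAS5-221 share is lowest in replicate 4 of both groups.

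None of the genes for snoRNA-binding proteins passed edgeR's test over all genes. Counts at an unadjusted p under 0.05 are given as higher and lower after overexpression, where all genes gave 9.92% and 9.46%. Among 14 box C/D snoRNP and assembly genes, 0 passed in either direction (2 higher and 1 lower unadjusted), with a median log2 fold change of 0.064, and the groups did not overlap for 3 (21.4%, against 11.6% of all genes). NOP56, a core box C/D protein, had 0.15 (SE 0.042, adjusted p = 0.111), and SNU13, which binds the C/D motif, had 0.15 (SE 0.039, adjusted p = 0.0922). The methyltransferase FBL had 0.0091 (SE 0.04, adjusted p = 0.933). Among 8 H/ACA genes, 0 passed (2 higher and 0 lower unadjusted), with a median of 0.099. NHP2 had 0.15 (SE 0.065, adjusted p = 0.236), NOP10 0.19 (SE 0.097, adjusted p = 0.316) and the assembly factor SHQ1 0.17 (SE 0.056, adjusted p = 0.139). All adjusted p-values here are edgeR's over all genes.

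Genes that act on the host RNA also gave no call. Of 24 nonsense-mediated decay factors 0 passed (2 higher and 7 lower unadjusted), with a median log2 fold change of -0.043 and 6 (25%) without overlap, against 11.6% of all genes. SMG6, the endonuclease of that pathway, had -0.27 (SE 0.06, adjusted p = 0.0703), whereas RNPS1 had 0.033 (SE 0.057, adjusted p = 0.809) and MAGOH 0.071 (SE 0.038, adjusted p = 0.336). Of 10 genes of intron excision and RNA decay 0 passed (0 higher and 3 lower unadjusted), with a median of -0.041. The exonuclease XRN1 had -0.15 (SE 0.049, adjusted p = 0.138) and the spliceosome protein PRPF8 -0.15 (SE 0.066, adjusted p = 0.233). EXOSC10, from the same list, had 0.056 (SE 0.036, adjusted p = 0.430 by edgeR). Of 17 genes of TOP mRNA and mTORC1 control 0 passed (0 higher and 2 lower unadjusted), with a median of -0.0094. EIF4EBP1, the translation repressor that mTORC1 inactivates, had -0.23 (SE 0.055, adjusted p = 0.0807), and the TOP-binding protein CNBP had 0.075 (SE 0.049, adjusted p = 0.438).

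Protein-coding genes that host snoRNAs or carry a TOP start had medians close to 0. Of 26 protein-coding hosts other than ribosomal proteins 0 passed (3 higher and 3 lower unadjusted), with a median of 0.011. RACK1, a ribosome-bound scaffold that hosts snoRNAs, had 0.008 (SE 0.046, adjusted p = 0.951 by edgeR). By the same test EEF2 had -0.12 (SE 0.061, adjusted p = 0.303) and KPNA4 -0.20 (SE 0.052, adjusted p = 0.0974). Of 19 non-ribosomal TOP mRNAs 0 passed (1 higher and 1 lower unadjusted), with a median of 0.0080, the value of RACK1. The lists overlap, since RACK1, EEF2, EEF1B2 and TPT1 are in both. All 80 cytosolic ribosomal protein genes were tested, 0 passed (2 higher and 0 lower unadjusted), and none had groups without overlap. Their median was 0.055 and 68 of 80 were above 0, against 52.6% of all genes.

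Hosts often start next to another gene on the opposite strand. SNHG1 starts 188 bases from SLC3A2, the heavy chain of amino acid transporters, which went from 202 ± 19.4 to 166 ± 17.8 CPM (SD, n = 4 each) with a log2 fold change of -0.28 (SE 0.088, adjusted p = 0.137), and its groups overlapped. GAS5 starts 800 bases from ZBTB37, which had -0.11 (SE 0.045, adjusted p = 0.206). ZFAS1 starts 248 bases from ZNFX1, with -0.11 (SE 0.054, adjusted p = 0.279), SNHG19 340 bases from TRAF7, with -0.048 (SE 0.04, adjusted p = 0.555), and SNHG9 99 bases from the ribosomal protein gene RPS2, with 0.015 (SE 0.046, adjusted p = 0.898). None of these partners passed edgeR's test. TRAF7 and SNHG19 differed in direction, as did SLC3A2 and SNHG1 (0.049, SE 0.25), whereas GAS5, ZFAS1 and SNHG9 had the sign of their partners. The near-silent SNHG31 starts 518 bases from the DNA repair gene BARD1, whose groups did not overlap, with -0.20 (SE 0.044, adjusted p = 0.0658). SNHG22 starts 63 bases from ACAA2, with -0.025 (SE 0.048, adjusted p = 0.827).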

How the data were processed

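The authors deposited estimated counts per transcript (whole numbers) and, in a second table, TPM per transcript, for 227751 Ensembl identifiers. Both come from a pipeline for which the submitters' processing notes name StringTie 2.1.0, HISAT2 2.1.0, SAMtools 1.9, cutadapt 2.8 and FastQC 0.11.5, with build GRCh38.p13. Strand use and annotation release are not stated there. Identifiers were joined to GENCODE release 29 (205804 matched, with 98.7% to 98.9% of each library's counts), and counts and TPM were summed per gene under current symbols. SNHG29, SNHG30, SNHG31 and SNHG32 carry other symbols in that release, and a protein-coding gene also named SNHG28 there was left out. Reads shared by isoforms or overlapping genes were divided by the authors' estimate, so these counts are not a tally of reads.

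The main test was edgeR 4.0.16 (R 4.3.3), quasi-likelihood with robust estimation, on TMM-scaled counts of genes or transcripts kept by filterByExpr (minimum count 10, minimum total 15), 4 libraries against 4, without covariates, with Benjamini-Hochberg adjustment over all features and a threshold of 0.05. Transcript usage was tested with diffSpliceDGE, and transcript shares with limma 3.58.1 on arcsine square-root shares. Alternatives were DESeq2 1.42.0 (its test and its size factors), no scaling, other filters, limma on log2(TPM + 0.1) and log2(TPM + 1), a replicate block, retained-intron and single-exon transcripts left out, and each library left out in turn. The tests were run on simulated data first. That simulation returned many false calls from diffSpliceDGE, so its calls are given with the share test. The gene test recovered 32% of changes of 1.25 times and 68% of changes of 1.5 times put into randomly drawn genes of those data. Hosts had wider standard errors than genes in general (medians of 0.18 and 0.068 for those with at least 1 CPM in both groups). Recovery for hosts alone was not measured. The transcript, usage and share tests recovered 0% of changes of 2 times. Of changes of 64 times they recovered 73.9%, 56.8% and 51.4%.

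Members and lists were chosen with earlier results of these data known. Values in every library are given for hosts past the test, hosts without overlap between groups and the 8 hosts with the highest mean TPM. From each list the text names genes past the test, or else the 2 most abundant and the 1 with the smallest p, not all of which are printed. Other hosts given in every library (SNHG20, SNHG16, SNHG5, EPB41L4A-AS1, SNHG30, SNHG8, SNHG15) and transcripts outside the 2 most abundant of the 6 leading hosts were chosen after their values were seen. Some snoRNA sequences and marker genes are not reported here.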

Additional observations from a re-analysis of the deposited data

Results flagged for a closer look

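In groups of 4 libraries, a library was set apart when its gap to the nearest other library took more of the group's range than Dixon's 95% limit for 4 samples allows. Of 52 groups tested, 2 held such a library, and chance alone gives about 1 in 20. SNHG6 in overexpression replicate 2 was at 70.0 CPM, and the next library was at 62.6 CPM. The cause was not tested. SNHG30 in control replicate 4 was at 12.2 CPM, and the next library was at 4.47 CPM. SNHG30 was also high in overexpression replicates 2 and 4, at 11.2 and 11.4 CPM.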

How the results depend on the processing

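Host genes called numbered 0 in edgeR's test and 0 with DESeq2 size factors, no scaling, no low-count filter, a mean count of at least 50, limma on either TPM scale, or retained-intron and single-exon transcripts left out. DESeq2's Wald test called 6, all higher (DANCR, SNHG3, SNHG4, SNHG19, SNHG20 and SNHG21), where 2.06% of its 14974 genes were called higher. Leaving out 1 library gave 0 to 3: without control replicate 4, SNHG4, SNHG19 and SNHG20 (0.415% of all genes higher), and without overexpression replicate 1, SNHG19 (0.6%). Across these alternatives and the block, adjusted p ran from 0.0138 to 0.173 for SNHG19, 0.00326 to 0.253 for SNHG4, 0.0347 to 0.240 for SNHG21, 0.0194 to 0.240 for SNHG20, 0.0216 to 0.455 for SNHG3 and 0.0222 to 0.991 for DANCR. DANCR turned to -0.073 (log2) with retained-intron and single-exon transcripts left out, a setting that removes its main transcript DANCR-202. DANCR-201, which that setting keeps, ranged from 7 to 608 counts over controls and 0 to 1022 over overexpression libraries. In every alternative, 16 of 26 hosts kept their direction. All genes called numbered 58, against 35 without scaling, 727 by DESeq2, 7 on log2(TPM + 0.1), 7 on log2(TPM + 1), 16 without retained-intron and single-exon transcripts, and 8 to 378 with 1 library left out. The cause of these moves was not tested.

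Replicate numbers are shared by the groups. Over all tested genes, same-numbered libraries did not deviate together (correlations from -0.046 to 0.014, and 0 of 4 correlated best with their own number). The main test did not pair samples by number. Whether same-numbered libraries share a batch was not tested, and replicate 4 had the highest retained-intron share of both groups, as given above. With the replicate block, 2 hosts were called (SNHG3 and SNHG4, where 0.15% of all genes were called higher) and 86 genes in all.

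Host transcripts called stayed at 0 in each alternative run. Usage calls were 0 except for 1 with a mean count of at least 50 (GAS5, adjusted p = 0.00512) and 1 without overexpression replicate 1 (SNHG29, adjusted p = 0.00477), a range of 0 to 1 with 1 library left out. The test of transcript shares, chosen after seeing the data, called 0 in its only run, on all 8 libraries with the main filter. It was not run in the settings that gave the calls of GAS5 and SNHG29, so it does not bear on them.

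For the 6 untested hosts, counts were too low to show a difference. The tests compare 4 libraries with 4, and estimated counts carry the error of dividing reads among isoforms, which was not measured here.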

Other observations

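Long noncoding RNAs without snoRNAs gave a comparison for the hosts. Of 9 tested, 0 passed in edgeR's test (0 higher and 1 lower at an unadjusted p under 0.05), the median log2 fold change was 0.050, and 1 (11.1%) had groups without overlap, against 11.6% of all genes. TUG1, an abundant nuclear and cytoplasmic lncRNA, had 0.084 (SE 0.051, adjusted p = 0.397), and NORAD, which binds PUMILIO proteins, had -0.049 (SE 0.039, adjusted p = 0.537). CYTOR had -0.34 (SE 0.091, adjusted p = 0.0983).

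Of 21 targets of the integrated stress response tested by edgeR, 5 fell (ASNS, CARS1, AARS1, ATF5 and GARS1) and 0 rose, where 0.301% of all genes were called. The median log2 fold change was -0.31, and 15 (71.4%) had groups without overlap, against 11.6% of all genes. ASNS, asparagine synthetase, had -0.45 (SE 0.049, adjusted p = 0.00783), and the transcription factor ATF5 had -0.62 (SE 0.10, adjusted p = 0.0382). The list repeats a change that was known for these libraries when it was written, and it is not independent evidence of its direction.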
